A study of Mus musculus with 24 samples.

Results

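The genes described here are the Wnt ligands, their Frizzled receptors and a set of their antagonists, 41 of the 55291 gene symbols counted in the RNA-seq experiment. The rule uses the gene symbol: Wnt, Fzd, Sfrp, Dkk, Nkd or Axin followed by a number and, in some, the letter a or b. The 41 were 19 Wnt, 10 Fzd, 4 Sfrp, 4 Dkk, 2 Nkd and 2 Axin genes, and the rule uses no expression value. The cells were C2C12, a long-established line of mouse myoblasts, although the sample labels speak of primary cells. Cells expressed a scrambled control (scr) or were knocked down (KD) for Baf180 (gene Pbrm1, of the PBAF form of the SWI/SNF chromatin remodeler), Baf250a (Arid1a, of cBAF) or Brd9 (of ncBAF). Each line was grown for 48 h without added metal (NT), with 100 µM CuSO4 or with 50 µM ZnSO4, with 2 replicates in each of the 12 conditions and 24 libraries in all. By the study's methods the KD lines were transduced with shRNA and kept as stable populations under puromycin, with replicates described as independent, whereas the labels give a knockdown with Lipofectamine. The sources used here do not say which shRNA construct a library carried.

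Wnt proteins are secreted lipid-modified signals. They bind Frizzled receptors together with the co-receptors Lrp5 or Lrp6, which stops a destruction complex built on Axin and Apc from degrading β-catenin, and β-catenin then activates genes with TCF and LEF factors. Other Wnt signals run through Frizzled without β-catenin and act on cell polarity and calcium. Sfrp proteins bind Wnts outside the cell, most Dkk proteins block Lrp5 and Lrp6, Nkd proteins act on Dishevelled inside the cell, and Axin1 and Axin2 are scaffolds of the destruction complex. In skeletal muscle, Wnt signals are known for their part in the embryonic origin of muscle, in satellite cells and in the switch between myogenic and fibrogenic fates.

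The total count per library ranged from 495778 to 75179394. The lowest total belonged to replicate 2 of Baf250a KD with Zn, and the other 23 libraries had at least 12719173. Counts of members called that use Baf250a KD with Zn are therefore given with and without that library. Values of single genes include it unless stated. Levels are given as CPM, counts scaled to a common library size with TMM factors, and differences as log2 fold changes with the SE of edgeR's quasi-likelihood fit. A gene is called a DEG at a Benjamini-Hochberg adjusted p under 0.05 over all genes tested, and groups are given as mean ± SD of their 2 libraries (n = 2). The targeted genes were lower in their own KD without metal: Pbrm1 by a log2 fold change of -0.76, Arid1a by -1.53 and Brd9 by -0.76 (adjusted p = 2.7e-03, 5.3e-08 and 6.0e-03). The muscle factor Myod1 was at 67.6 to 153 CPM in every library, with a mean of 94.6 in scr and 134 in Baf250a KD. The other myoblast genes read had lower means in Baf250a KD than in scr. These were Myf5 (32.6 against 162), Itga7 (231 against 879), Cdh15 (139 against 367), Des (874 against 2036) and Pax7 (0.662 against 1.37). Pax7 was higher than in scr in Baf180 KD and Brd9 KD (3.08 and 3.76). The summed CPM of 6 fibroblast genes was 10.8 to 19.1 in scr, 42.1 to 62.4 in Baf180 KD, 167 to 186 in Baf250a KD and 30.7 to 41.8 in Brd9 KD.

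Sfrp2 and Nkd2 had the largest KD changes among members with a RefSeq promoter entry and moderate counts in the KDs. Wnt4 was the ligand that responded to Cu. Promoter sequences are shown for these genes. They were copied from RefSeq's promoters on GRCm38.p6 (the assembly also called mm10), 5′ to 3′ on the gene's strand. Capitals mark matches, here all on the opposite strand, to TGCGCNC, a form of the core of the metal response element that the metal-sensing factor MTF1 recognizes.
Sfrp2, chr3:83766071-83766320, plus strand, the 250 bases before its start: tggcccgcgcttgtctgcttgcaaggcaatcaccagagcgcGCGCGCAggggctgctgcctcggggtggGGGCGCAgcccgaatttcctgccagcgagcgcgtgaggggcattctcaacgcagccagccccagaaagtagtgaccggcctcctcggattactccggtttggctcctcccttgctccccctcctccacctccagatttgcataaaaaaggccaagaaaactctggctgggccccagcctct
Wnt4, chr4:137277385-137277488, plus strand, the 104 bases before the earliest annotated start: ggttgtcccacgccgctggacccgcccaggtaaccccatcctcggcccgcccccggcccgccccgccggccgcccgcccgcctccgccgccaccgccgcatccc
Wnt4, chr4:137277518-137277547, plus strand, 30 bases around its match: cgccgggcagcGGGCGCAgcagcgggcggc
Nkd2, chr13:73847632-73847881, minus strand, the 250 bases before its start: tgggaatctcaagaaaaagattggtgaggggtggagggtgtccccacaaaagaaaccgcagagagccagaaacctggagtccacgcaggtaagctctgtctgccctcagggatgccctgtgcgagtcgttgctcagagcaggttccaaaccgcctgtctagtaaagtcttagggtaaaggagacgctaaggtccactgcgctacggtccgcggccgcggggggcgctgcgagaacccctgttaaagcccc
Sfrp2 held the match at bases 209 to 203 and 181 to 175 before the start, and Wnt4 at bases 106 to 100 before the RefSeq start, which is within the first exon that GENCODE M21 begins 146 bases earlier. Among 32851 RefSeq promoters searched over the same 250 bases on both strands, 12.5% held TGCGCNC. The 28 members with a promoter entry had 31 promoters. Of these members, 9 held TGCGCNC in at least 1 promoter: Fzd9, Fzd10, Sfrp2, Wnt2, Wnt3, Wnt4, Wnt6, Wnt9a and Wnt11. The percentages here count promoters and the member numbers count genes, so the units differ. The other form of that core, TGCACNC, stood in 10.4% of promoters and in those of 3 members, the TCF and LEF core CTTTGAT in 3.21% and 2 members, and the myogenic E-box CAGCTG in 13% and 3 members. No motif searched was found in the window of Nkd2. A match describes the letters in a window and is not a bound site.

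In these myoblasts 20 of the 41 members had a mean of at least 1 CPM over the 24 libraries, and 26 had enough counts to be tested in at least 1 comparison. These 26 were 9 Wnt, 9 Fzd, 3 Sfrp, 2 Dkk, 1 Nkd and 2 Axin genes. The 15 that were tested in none were Wnt1, Wnt2, Wnt2b, Wnt3, Wnt3a, Wnt7a, Wnt8a, Wnt8b, Wnt9b, Wnt16, Fzd10, Sfrp5, Dkk1, Dkk4 and Nkd1, with at most 44 counts each over all libraries. Fzd10, Dkk4 and Wnt9b had 0 counts throughout. Wnt6 and Wnt10a are neighbours on chromosome 1, and Fzd3, Nkd1 and Wnt2b overlap another annotated gene on the same strand. Every member with a mean of at least 1 CPM was a DEG in at least 1 comparison with scr. In a single such comparison 12.2% to 57.8% of all genes tested were DEGs, and the share over all genes in at least 1 was not computed.

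**Figure D1:**
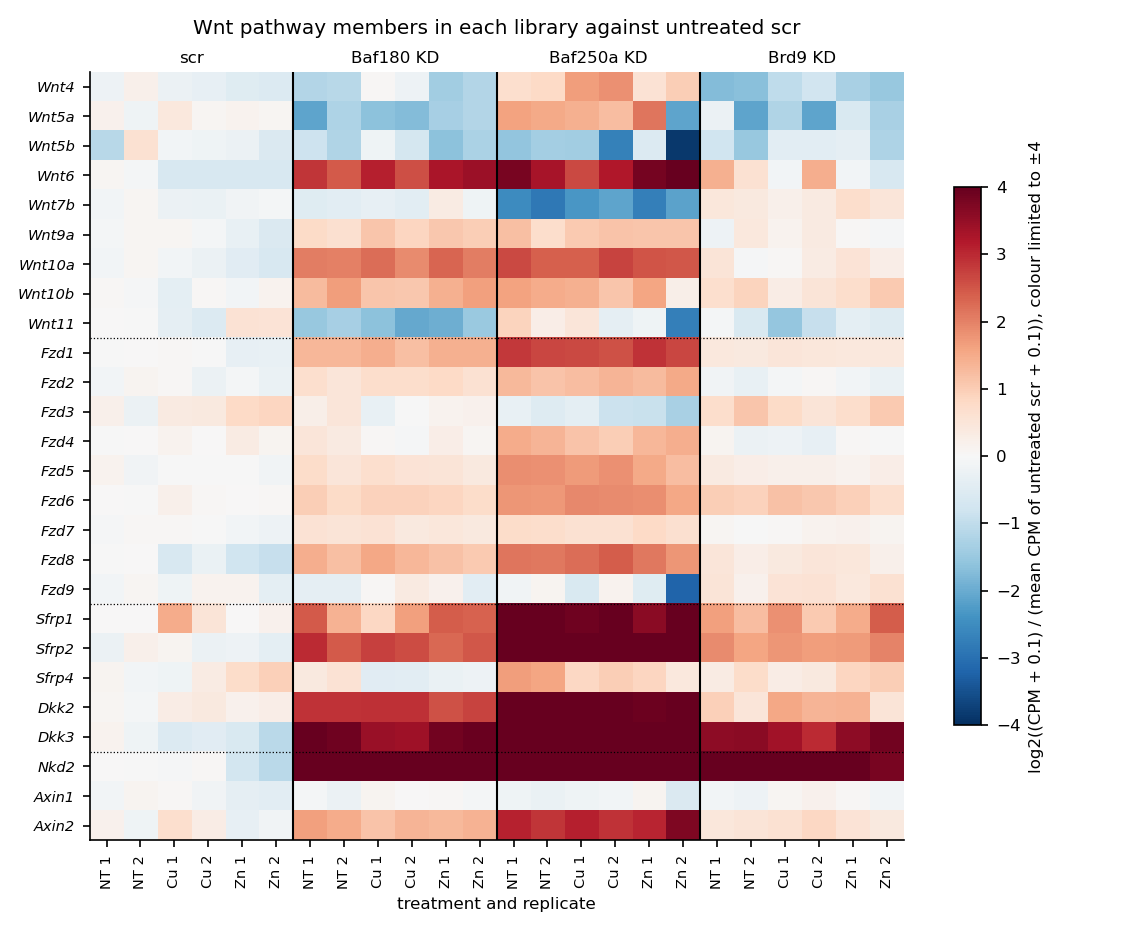
Level of the 26 tested members (rows, ordered as ligands, receptors, secreted antagonists and intracellular inhibitors) in each of the 24 libraries (columns), as log2 of CPM over the mean of untreated scr, with 0.1 CPM added to both. Red is higher and blue lower: Nkd2, Dkk3 and Sfrp2 are red in all 18 KD libraries, and Wnt7b is blue in all 6 of Baf250a KD.

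Levels of different genes were compared per length, as CPM per kb of exons, and summed by role over the 6 libraries of a line. Receptors were the most abundant role in every line: the sum was 43.3 to 51.1 CPM per kb in scr, 79.5 to 87.1 in Baf180 KD, 143 to 155 in Baf250a KD and 54.3 to 60.1 in Brd9 KD, and these ranges did not overlap. Fzd2 made up 33.3% and Fzd7 26.8% of the receptor sum in scr, whereas Fzd1 led in Baf250a KD with 35.0%. Ligands summed to 10.9 to 14.9 CPM per kb in scr, 23.0 to 28.5 in Baf180 KD, 29.0 to 38.2 in Baf250a KD and 13.004 to 16.4 in Brd9 KD. Wnt7b (27.1%) and Wnt4 (20.8%) led among ligands in scr. Wnt10a led in Baf180 KD (45.6%) and in Baf250a KD (47.4%), and Wnt7b led in Brd9 KD (33.3%).

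Secreted antagonists differed most between the lines. Their sum was 1.60 to 1.85 CPM per kb in scr, 8.75 to 12.9 in Baf180 KD, 78.3 to 105 in Baf250a KD and 5.38 to 6.99 in Brd9 KD, without overlap. Sfrp2 made up 56.7% of that sum in scr and 89.3% in Baf250a KD. The intracellular inhibitors were mostly Axin1, from 66.8% of their sum in Baf250a KD to 97.7% in scr. In bulk RNA, fewer cells of a type and less RNA per cell cannot be told apart.

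The first comparison asked which members differ between each KD and scr without added metal. In Baf180 KD 19 of the 24 members tested were DEGs, 16 higher and 3 lower, where 41% of all 14851 genes tested were DEGs and 21.7% were higher DEGs. In Baf250a KD it was 22 of 26, 20 higher and 2 lower, against 57.8% of 14971 genes and 28.9% higher. In Brd9 KD it was 9 of 22, 8 higher and 1 lower, against 29.2% of 14277 genes and 15.1% higher. The median log2 fold change of the members tested was 0.68, 1.74 and 0.41, against 0.03, 0.00 and 0.01 over all genes tested. Some members passed the filter on low counts only through the KD libraries, so these shares describe the members tested and not all 41. The 3 comparisons share the 2 untreated scr libraries. Without replicate 2 of untreated Brd9 KD, 5 members remained called in that line.

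Sfrp2, which encodes a secreted Wnt-binding protein, was at 1.98 and 2.69 CPM in untreated scr, 19.2 and 13.2 in Baf180 KD, 189 and 203 in Baf250a KD and 8.91 and 7.15 in Brd9 KD. All KD libraries lay above both scr libraries, and Baf250a KD lay about an order of magnitude above the other KDs. The log2 fold changes were 2.78 ± 0.24 (SE), 6.36 ± 0.16 and 1.78 ± 0.24 (adjusted p = 4.03e-06, 2.36e-11 and 1.92e-03). Dkk3 encodes a divergent Dickkopf protein. It was at 0.255 and 0.186 CPM in scr, 5.38 and 4.65 in Baf180 KD, 16.1 and 15.4 in Baf250a KD and 3.69 and 3.85 in Brd9 KD. The KD and scr values did not overlap, with log2 fold changes of 4.52 ± 0.40, 6.16 ± 0.28 and 4.10 ± 0.40 (adjusted p = 5.52e-06, 1.85e-09 and 3.87e-04). They rest on 4 Dkk3 counts in each untreated scr library.

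Dkk2, a ligand of Lrp6, was at 0.892 and 0.789 CPM in scr, 6.90 and 6.92 in Baf180 KD, 16.6 and 17.1 in Baf250a KD and 1.74 and 1.21 in Brd9 KD. It rose in Baf180 KD (log2 fold change 3.06 ± 0.28, adjusted p = 7.15e-06) and in Baf250a KD (4.32 ± 0.22, adjusted p = 4.95e-09), and the value in Brd9 KD was 0.85 ± 0.38 (adjusted p = 0.126). Sfrp1 had 0 counts in both untreated scr libraries and 42 and 49 counts in Baf250a KD, at least 23.98-fold higher against a floor of 3 counts over the group. In Baf180 KD, Sfrp1 had 10 and 4 counts, at least 3.73-fold higher, and in Brd9 KD 4 and 2 counts. These bounds cover counting error only. Sfrp4 rose in Baf250a KD alone among the untreated KDs (1.41 ± 0.162 CPM in scr and 4.62 ± 0.204 in the KD, log2 fold change 1.71 ± 0.27, adjusted p = 1.5e-04). Its log2 fold changes in Baf180 KD and Brd9 KD were 0.55 and 0.59 (adjusted p = 0.227 and 0.216), and whether the KDs differ is given by the comparison between KDs.

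**Figure D2:**
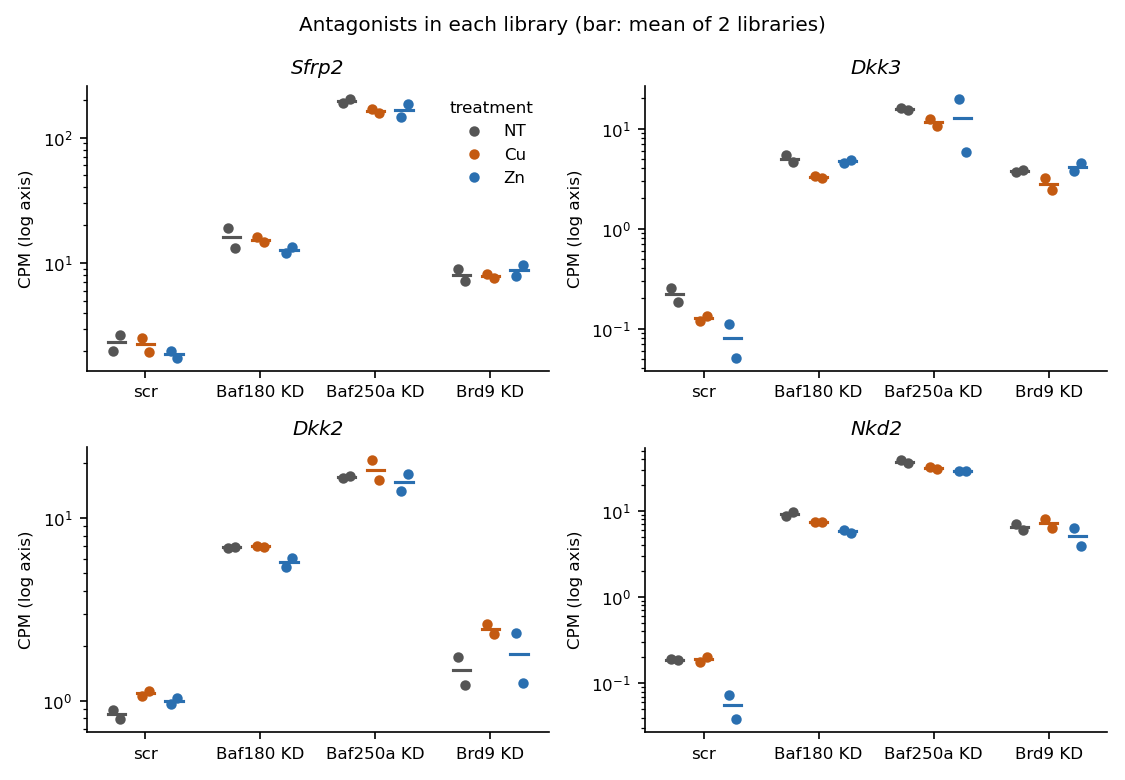
CPM (log axis) of Sfrp2, Dkk3, Dkk2 and Nkd2 in each library, by line and treatment, with a bar at the mean of the 2 libraries. Every Baf250a KD library lies above every scr library for all 4 genes, and the 2 Zn libraries of Baf250a KD lie apart for Dkk3, at 19.8 and 5.83 CPM.

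Among the intracellular inhibitors, Nkd2, which binds Dishevelled, changed most. It was at 0.191 and 0.186 CPM in untreated scr, 8.83 and 9.59 in Baf180 KD, 38.5 and 35.5 in Baf250a KD and 7.01 and 6.07 in Brd9 KD. Its log2 fold changes were 5.59 ± 0.34, 7.58 ± 0.24 and 5.09 ± 0.36 (adjusted p = 2.7e-07, 8.0e-11 and 1.0e-04), and the call held without any 1 of the libraries compared. Nkd2 had only 2 to 9 counts in each scr library, so the size of these changes rests on few scr counts. Axin2, a scaffold of the destruction complex and itself a known target of β-catenin, was at 2.87 and 2.23 CPM in scr, 8.25 and 7.33 in Baf180 KD, 22.49 and 19.0 in Baf250a KD and 3.53 and 3.71 in Brd9 KD. Axin2 rose in the first 2 KDs (log2 fold changes 1.64 ± 0.23 and 3.04 ± 0.19, adjusted p = 2.3e-04 and 4.0e-08), and its value in Brd9 KD was 0.53 ± 0.27 (adjusted p = 0.167). Axin1 was not called in any untreated KD, at 96.0 ± 9.80 CPM in scr and 82.4 to 86.7 CPM on average in the KDs.

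Of the Frizzled receptors, 7 of the 9 tested rose in Baf180 KD, 7 of 9 in Baf250a KD and 3 of 9 in Brd9 KD, where 21.7%, 28.9% and 15.1% of all genes tested were higher DEGs, and none was called lower. Fzd1 was at 32.3 and 33.7 CPM in scr, 82.6 and 83.0 in Baf180 KD, 235 and 212 in Baf250a KD and 44.1 and 43.4 in Brd9 KD, with no overlap between scr and any KD. Its log2 fold changes were 1.34 ± 0.11, 2.76 ± 0.11 and 0.42 ± 0.11 (adjusted p = 2.8e-06, 6.25e-10 and 0.0219). The Brd9 KD call was lost without replicate 1 or 2 of that KD (log2 fold change 0.41 and 0.40). Fzd6 rose in all 3 KDs, from 22.6 ± 0.240 CPM to 41.5 ± 4.37, 76.5 ± 0.488 and 44.1 ± 1.34, by log2 fold changes of 0.89, 1.76 and 0.98 (adjusted p = 1.8e-04, 3.4e-08 and 7.8e-04).

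Fzd2, Fzd5, Fzd7 and Fzd8 rose in Baf180 KD and in Baf250a KD. In Baf180 KD their log2 fold changes were 0.59, 0.64, 0.55 and 1.37 (adjusted p = 2.0e-03, 4.4e-03, 1.7e-03 and 1.7e-04). In Baf250a KD they were 1.22, 1.86, 0.72 and 2.14 (adjusted p from 6.72e-08 to 7.05e-05). Fzd7 is known as a receptor of muscle satellite cells. The Baf180 KD calls of Fzd2 and Fzd5 were lost without replicate 1 of untreated Baf180 KD (log2 fold change 0.48 in both). Fzd4 rose in Baf250a KD (9.96 ± 0.0298 to 26.9 ± 1.60 CPM, log2 fold change 1.43, adjusted p = 1.85e-06). Its rise in Baf180 KD (0.44, adjusted p = 0.0403) was lost when any 1 of the 4 libraries was left out, at 0.35 to 0.45. Fzd3, a receptor known in cell polarity, was at 14.5 ± 3.26 CPM in scr and rose in Brd9 KD to 27.5 ± 5.07 (log2 fold change 0.95, adjusted p = 0.0117). That call was lost without replicate 2 of untreated Brd9 KD (0.70) and in the fit corrected for GC content and length (0.30, adjusted p = 0.0901). In Baf250a KD Fzd3 stood at -0.40 (adjusted p = 0.0745) and at -1.14 with that correction (adjusted p = 4.3e-05). Fzd9 was called in no comparison with scr.

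Ligands moved in both directions. Wnt10a, a β-catenin pathway ligand, was at 6.12 and 7.01 CPM in untreated scr, 27.2 and 26.6 in Baf180 KD, 41.5 and 35.0 in Baf250a KD and 9.39 and 6.41 in Brd9 KD. The first 2 KDs lay above scr (log2 fold changes 2.04 ± 0.15 and 2.53 ± 0.15, adjusted p = 1.2e-06 and 2.0e-08), and Brd9 KD overlapped scr (0.29 ± 0.22, adjusted p = 0.347). Wnt10b, its paralog, rose in all 3 KDs, from 4.996 ± 0.235 CPM to 14.2 ± 2.79, 14.7 ± 0.850 and 8.69 ± 0.880, by 1.53, 1.56 and 0.82 (adjusted p = 1.2e-04, 5.8e-06 and 0.0186). The call in Brd9 KD was lost without replicate 2 of untreated Brd9 KD (0.67). Wnt9a rose in Baf180 KD (0.73, adjusted p = 5.5e-03; 0.65 and not called without replicate 1 of untreated Baf180 KD) and Baf250a KD (0.98, adjusted p = 7.3e-04). Wnt6 had 1 count in each untreated scr library, 23 and 18 in Baf180 KD and 53 and 30 in Baf250a KD. The ratios of summed counts at equal depth were 16.4 (95% exact interval 4.25 to 140) and 32.8 (8.80 to 275), for counting error only.

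Wnt4, a ligand known from kidney, gonad and muscle development, differed in sign between the KDs. It was at 10.96 and 14.6 CPM in untreated scr, 5.602 and 5.80 in Baf180 KD, 20.6 and 22.3 in Baf250a KD and 3.80 and 3.98 in Brd9 KD, and no KD overlapped scr. Wnt4 fell in Baf180 KD and Brd9 KD (log2 fold changes -1.15 ± 0.19 and -1.70 ± 0.21, adjusted p = 6.9e-04 and 1.1e-03) and rose in Baf250a KD (0.74 ± 0.16, adjusted p = 1.4e-03). All 3 calls held without any 1 of the libraries compared. Wnt7b was at 16.5 and 18.8 CPM in scr, 12.7 and 13.3 in Baf180 KD, 3.02 and 2.35 in Baf250a KD and 23.997 and 23.3 in Brd9 KD. It fell in Baf250a KD by 2.71 on the log2 scale (SE 0.19, adjusted p = 9.95e-08) and in every leave-one-out fit. Its fall in Baf180 KD (-0.43, adjusted p = 0.0375) and its rise in Brd9 KD (0.44, adjusted p = 0.0390) were each lost in 3 of the 4 fits that left out a library, at -0.50 to -0.33 and at 0.35 to 0.42.

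Wnt5a, Wnt5b and Wnt11, among the ligands known for signals without β-catenin, had means near 1 CPM or below in every line. Wnt5a was at 0.382 and 0.279 CPM in untreated scr and 1.20 and 1.13 in Baf250a KD (log2 fold change 1.83, adjusted p = 5.2e-03). That call was lost without replicate 1 of untreated Baf250a KD (1.76) or replicate 2 of untreated scr (1.58). Wnt5b fell in Baf250a KD by 1.71 (adjusted p = 0.0211), but the scr libraries stood apart at 0.574 and 2.14 CPM and without the higher one the value was -0.43 and not called. It was also not called without replicate 1 or 2 of untreated Baf250a KD, and the 4 fits that left out a library ran from -2.31 to -0.43. Wnt11 had 9 and 12 counts in scr and 3 and 4 in Baf180 KD, and its fall there (-1.85, adjusted p = 0.0286) was lost when any 1 of the 4 libraries was left out (-2.05 to -1.75).

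The fibroblast genes moved with these results, and their part was not tested. Pdgfra, which marks fibro-adipogenic cells, was at 3.78 to 5.54 CPM in scr, 19.6 to 25.4 in Baf180 KD, 53.6 to 66.1 in Baf250a KD and 8.05 to 10.9 in Brd9 KD. Of the 6 fibroblast genes 4, 5 and 3 were tested, and 3 rose in untreated Baf180 KD, 5 in Baf250a KD and 2 in Brd9 KD (higher DEGs were 21.7%, 28.9% and 15.1% of all genes), whereas Dpt was at no more than 0.627 CPM in any library. Col15a1, at no more than 0.0637 CPM in scr and 1.56 to 5.83 in Baf250a KD, could pass the filter through that KD. These counts therefore describe the genes tested and not all 6. Of 4 adipocyte genes only Cebpa had a mean of at least 1 CPM in any line, at 1.42 to 2.97 CPM in scr and 5.44 to 31.3 in the KDs, and Adipoq and Plin1 were at or near 0. The summed CPM of 6 myoblast genes was 2838 to 4293 in scr and 1309 to 2403 in the KDs. That of 8 genes of differentiating muscle was 2929 to 5445 in scr, 541 to 1271 in Baf180 KD, 403 to 1011 in Baf250a KD and 754 to 1655 in Brd9 KD. Ttn made up most of this second sum, at 2825 to 5371 CPM in scr and 412 to 1117 in Baf180 KD. Several other genes of that list had a higher mean CPM in Baf180 KD than in scr, with Myog at 29.2 against 5.19 and Myh3 at 29.8 against 5.09. Mymk, Mymx, Ckm and Tnnt1 were also higher there, and Acta1 was at 54.8 against 57.4. In Baf250a KD Myog and Myh3 were at 10.6 and 9.63, and in Brd9 KD at 2.92 and 2.29.

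The same comparison within Cu and within Zn used other libraries of both lines. Here too some members, among them Wnt6, passed the filter on low counts only through the KD libraries. Within Cu, 17 of 25 members tested were DEGs in Baf180 KD (24.9% of all genes tested), 22 of 25 in Baf250a KD (41.2%) and 7 of 22 in Brd9 KD (12.2%). Without replicate 1 of Baf180 KD with Cu, 11 remained called, and without replicate 1 or replicate 2 of Brd9 KD with Cu, 4 remained called in each case. Within Zn it was 22 of 25 (49.9%), 21 of 25 (57.5%) and 12 of 23 (23.2%), and 22 in Baf250a KD without its shallow library. Members called higher numbered 15, 19 and 7 in Cu, where 14.2%, 21.1% and 6.94% of all genes were higher DEGs and 5.27% were lower ones in Brd9 KD, and 17, 19 and 11 in Zn (24.9%, 29.4% and 12.6%). Dkk3, Fzd1, Fzd6, Nkd2 and Sfrp2 were called higher in all 9 comparisons with scr, and no member was called lower in all 9. The share of all genes called in all 9 was not computed, so this count is not read as particular to the members. The Fzd1 call in Brd9 KD within Cu (0.43, adjusted p = 0.0394) was lost with the GC correction (0.35, adjusted p = 0.0675), with the replicate block (adjusted p = 0.0771) and without either Brd9 KD library with Cu (0.41 and 0.44). Within a treatment the 3 comparisons share the same 2 scr libraries.

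**Figure D3:**
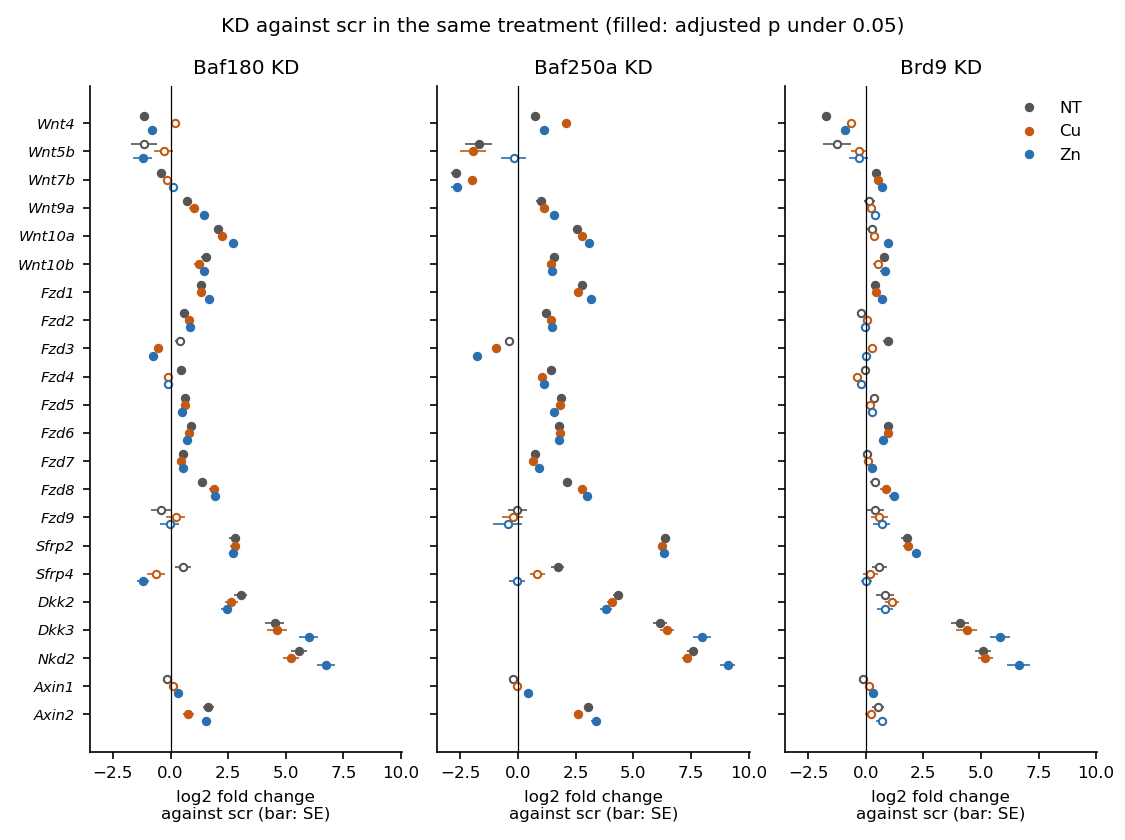
Log2 fold change (x axis) of each KD against scr in the same treatment for 22 members (rows), with bars for the SE and colours for NT, Cu and Zn. Filled points are DEGs: Sfrp2, Dkk3 and Nkd2 are filled and to the right in every panel and treatment, Wnt7b is to the left in Baf250a KD, and Wnt4 changes side between the KDs. Sfrp1, Wnt5a, Wnt6 and Wnt11, of lowest counts, are not drawn.

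Nkd2 had log2 fold changes of 5.23, 7.33 and 5.18 in Cu and 6.76, 9.10 and 6.63 in Zn for Baf180, Baf250a and Brd9 KD (adjusted p from 3.2e-34 to 2.6e-04). Nkd2 was at 0.0741 and 0.0381 CPM in scr with Zn, so the Zn values rest on very few scr counts. Dkk3 stood at 4.62, 6.47 and 4.38 in Cu and 5.9995, 7.98 and 5.83 in Zn (adjusted p from 6.6e-27 to 1.2e-03). Dkk3 in scr was likewise lowest with Zn, at 0.111 and 0.0508 CPM. The Zn values of Baf250a KD include its shallow library, where Dkk3 had 3 counts (5.83 CPM, against 19.8 in replicate 1). Sfrp2 stood at 2.80, 6.25 and 1.82 in Cu and 2.73, 6.35 and 2.20 in Zn (adjusted p from 3.2e-48 to 2.5e-03). For the low-count Wnt6, scr had 0 counts with Cu and with Zn: it was at least 20.7-fold higher in Baf180 KD and at least 22.1-fold higher in Baf250a KD with Cu, and at least 52.3-fold and 75.9-fold higher with Zn.

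Wnt4 differed from scr by other amounts in Cu. In Baf180 KD it was at 13.1 and 10.99 CPM with Cu, against 10.7 and 10.2 in scr with Cu, a log2 fold change of 0.20 ± 0.17 (adjusted p = 0.477) that was -0.07 with the GC correction. In Zn it was lower again (4.79 and 5.56 against 9.04 and 8.71 CPM, -0.82 ± 0.14, adjusted p = 1.5e-03). In Brd9 KD the value was -0.62 ± 0.16 in Cu (adjusted p = 0.0508) and -0.90 ± 0.15 in Zn (adjusted p = 4.0e-03). In Baf250a KD it was 2.08 ± 0.13 in Cu and 1.11 ± 0.15 in Zn (adjusted p = 1.55e-05 and 4.7e-09).

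Of the 16, 20 and 8 members called higher in untreated Baf180, Baf250a and Brd9 KD, 15, 19 and 6 were also called higher within Cu and 15, 18 and 7 within Zn. Of the 3, 2 and 1 called lower, 0, 2 and 0 were called lower within Cu and 2, 1 and 1 within Zn. The same shares over all genes were not computed, so these counts are not read as particular to the members. In Brd9 KD within Cu, Fzd3 was at 0.26 (adjusted p = 0.28) and Wnt10b at 0.54 (adjusted p = 0.167). Wnt10a was higher in Brd9 KD with Zn (0.96, adjusted p = 4.9e-03), where it was not called in untreated cells or in Cu (0.35, adjusted p = 0.279). Fzd8 rose in Brd9 KD in Cu (0.86, adjusted p = 0.0448) and Zn (1.21, adjusted p = 4.4e-03), and the Cu call was lost without replicate 1 or 2 of Brd9 KD with Cu (0.91 and 0.81). Fzd3 fell in Baf250a KD in Cu (-0.96, adjusted p = 3.6e-03) and Zn (-1.78, adjusted p = 4.6e-15), and was also called lower in Baf180 KD in both. The Zn value in Baf250a KD includes the shallow library, where Fzd3 had 3 counts (5.83 CPM, against 7.73 in replicate 1). Axin1 was called higher in all 3 KDs in Zn (0.34, 0.45 and 0.34), but these were -0.03, 0.06 and 0.11 with the GC correction. In Baf250a KD with Zn, Axin1 was at -0.21 without replicate 1 of that group, which leaves the shallow library alone, and it lost the call without either scr library with Zn (0.31 and 0.27). In Brd9 KD that call was likewise lost without either scr library with Zn (0.35 and 0.30). Sfrp4 fell in Baf180 KD in Zn (-1.20, adjusted p = 6.0e-03), a call lost without replicate 2 of scr with Zn (-1.08).

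The KDs were then compared with each other over their 12 libraries, with treatment as a term in the fit. Between Baf180 KD and Baf250a KD 20 of 26 members tested were DEGs, 2 higher and 18 lower in Baf180 KD, where 44.7% of all genes tested were DEGs. Between Baf180 KD and Brd9 KD it was 18 of 23, 14 higher and 4 lower in Baf180 KD (40.8% of all genes). Between Baf250a KD and Brd9 KD it was 24 of 26, 21 higher and 3 lower in Baf250a KD (54.1%). Without the shallow library the members called numbered 21 in the first pair and 25 in the last. Of all genes tested, 23.1% were higher and 21.6% lower DEGs in the first pair. In the second pair it was 20.4% and 20.5%, and in the last 28% and 26.1%. Some members near 0 in the other KD, among them Wnt5a, could pass the filter on low counts through Baf250a KD. These counts therefore describe the members tested and not all 41.

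Among members with a mean of at least 1 CPM in both KDs compared, Sfrp2 had the largest difference between Baf250a KD and each of the other KDs. Its level in Baf180 KD against Baf250a KD was -3.54 (SE 0.09, adjusted p = 1.34e-14), and it was higher in Baf250a KD than in Brd9 KD by 4.42 ± 0.09 (adjusted p = 4.8e-16). Between Baf180 KD and Brd9 KD, Sfrp2 differed by 0.83 ± 0.11, Wnt10a by 1.78 ± 0.09 and Dkk2 by 1.73 ± 0.15 (adjusted p = 1.96e-05, 5.75e-10 and 1.28e-07). Wnt4 was higher in Baf250a KD than in Brd9 KD by 2.45 ± 0.11 (adjusted p = 3.15e-12), and stood at -1.88 ± 0.08 in Baf180 KD against Baf250a KD (adjusted p = 7.97e-12). Wnt7b went the other way, at -2.91 ± 0.13 for Baf250a KD against Brd9 KD (adjusted p = 3.1e-12). Sfrp4 was lower in Baf180 KD than in Baf250a KD (-1.25 ± 0.15, adjusted p = 2.65e-06) and than in Brd9 KD (-0.69 ± 0.19, adjusted p = 8.1e-03).

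Dkk3 and Nkd2 were higher in Baf250a KD than in Brd9 KD by 2.10 ± 0.13 and 2.35 ± 0.11 (adjusted p = 2.15e-10 and 8.28e-12). Between Baf180 KD and Brd9 KD these 2 were not called, with differences of 0.27 ± 0.11 and 0.20 ± 0.12 (adjusted p = 0.0763 and 0.174), which does not show that they were alike. Wnt5a stood at -4.47 ± 0.39 in Baf180 KD against Baf250a KD (adjusted p = 4.43e-08), with 0 to 2 counts in each Baf180 KD library. Fzd9, at 0.845 CPM on average, was lower in Baf180 KD and in Baf250a KD than in Brd9 KD (-0.61 ± 0.20 and -0.73 ± 0.24, adjusted p = 0.0196 and 0.0161). The first call was lost without replicate 2 of Baf180 KD with Zn (-0.51) or replicate 1 of untreated Brd9 KD (-0.53), and the second without replicate 1 of Baf250a KD with Cu (-0.61). Between Baf180 KD and Brd9 KD, Dkk3 was called without replicate 1 of Brd9 KD with Cu (0.33) or its replicate 2 with Zn (0.34), and Nkd2 without replicate 1 of Brd9 KD with Zn (0.32).

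The metal responses were compared within each line, on its 6 libraries. Few members were called. With Cu it was 0 of 21 tested in scr (0.0333% of all genes tested), 4 of 23 in Baf180 KD (13.8%), 1 of 25 in Baf250a KD (1.27%) and 0 of 22 in Brd9 KD (0.274%). With Zn it was 2 of 21 in scr (17.6%), 0 of 23 in Baf180 KD (0.0197%), 2 of 25 in Baf250a KD (15.9%) and 0 of 22 in Brd9 KD (0.0334%). Of all genes, higher and lower DEGs with Cu made up 0.00667% and 0.0267% in scr, 5.46% and 8.3% in Baf180 KD, 0.626% and 0.646% in Baf250a KD and 0.174% and 0.1% in Brd9 KD. With Zn they made up 10.5% and 7.13% in scr, 0.0131% and 0.00656% in Baf180 KD, 8.85% and 7.02% in Baf250a KD and 0.0267% and 0.00668% in Brd9 KD. Where edgeR called 0 members, an unadjusted p under 0.05 was found for 1 in scr with Cu (Fzd3), 3 in Brd9 KD with Cu (Axin1, Wnt10b and Wnt4), 3 in Baf180 KD with Zn (Nkd2, Sfrp4 and Wnt7b) and 0 in Brd9 KD with Zn, and DESeq2 called 0 in each. The count for Baf180 KD with Cu was 0 without its replicate 1 with Cu or its untreated replicate 2, and 2 without its replicate 2 with Cu. As a check of the treatment, the metallothionein gene Mt2 rose with Zn in scr by 3.40, in Baf180 KD by 1.71, in Baf250a KD by 1.10 and in Brd9 KD by 2.12 (adjusted p from 1.2e-06 to 1.5e-04). The fold changes followed the GC content of genes, with Spearman correlations over 11906 to 12149 genes from -0.70 for scr with Zn to 0.54 for Baf180 KD with Cu, so values from the fit corrected for GC content and length stand beside each call.

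Wnt4 was the member that rose with Cu. In Baf250a KD it went from 20.6 and 22.3 CPM to 40.9 and 45.7, and in Baf180 KD from 5.602 and 5.80 to 13.1 and 10.99. In both, every Cu library lay above every untreated one. The log2 fold changes were 1.01 ± 0.11 (adjusted p = 5.3e-06; 1.01 corrected, adjusted p = 8.3e-04) and 1.04 ± 0.16 (adjusted p = 7.8e-03; 0.89 corrected, adjusted p = 0.0148). The call in Baf250a KD held without any 1 of its libraries. The call in Baf180 KD was lost without replicate 1 of Baf180 KD with Cu (0.91) or without replicate 2 of untreated Baf180 KD (1.09).

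In Brd9 KD, Wnt4 went from 3.80 and 3.98 CPM to 6.29 and 7.41 with Cu, without overlap, at 0.77 ± 0.18 (adjusted p = 0.153). It passed the threshold there in 2 of 6 alternative fits, with adjusted p from 7.2e-03 to 0.198. In scr the Cu libraries were at 10.7 and 10.2 CPM against 10.96 and 14.6 untreated (-0.28 ± 0.15, adjusted p = 0.531). With Zn, Wnt4 was not called in any line, at -0.44 ± 0.15 in scr, -0.15 ± 0.18 in Baf180 KD, -0.14 ± 0.15 in Baf250a KD and 0.30 ± 0.19 in Brd9 KD. The value in Baf250a KD turned to 0.26 without replicate 1 of that KD with Zn. No fibroblast marker was called higher with Cu in Baf180 KD or Baf250a KD, where 5.46% and 0.626% of all genes tested were higher DEGs. Dcn, a proteoglycan gene of fibroblasts, fell there (-1.65 and -0.77, adjusted p = 3.6e-03 and 1.7e-03). A part of fibroblast-like cells in the Wnt4 change was not tested.

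**Figure D4:**
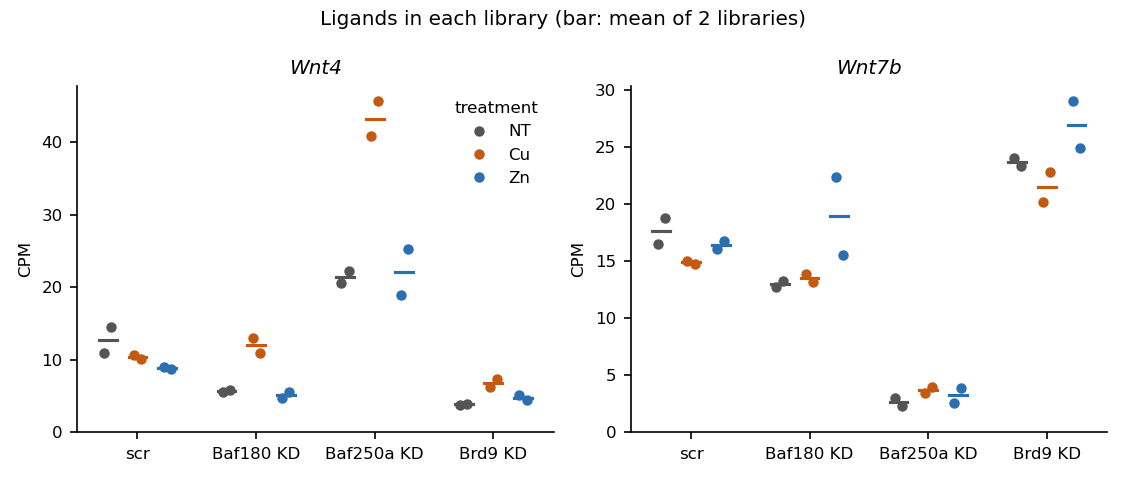
CPM of Wnt4 and Wnt7b in each library, by line and treatment, with a bar at the mean of the 2 libraries. The Cu libraries of Baf250a KD (40.9 and 45.7 CPM) and of Baf180 KD (13.1 and 10.99 CPM) lie above the NT and Zn libraries of the same line for Wnt4, and Wnt7b lies between 2.35 and 3.99 CPM in all 6 libraries of Baf250a KD.

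In the main fit, the 2 other markers of the set did not pass the test with either metal in any line. Dkk3 stood with Cu at -0.63 ± 0.19 in Baf180 KD, -0.43 ± 0.15 in Baf250a KD and -0.48 ± 0.24 in Brd9 KD (adjusted p = 0.0551, 0.218 and 0.343), and the Cu libraries lay below the untreated ones in all 3. Nkd2 stood with Cu at -0.33, -0.24 and 0.09, and with Zn at -0.69, -0.37 and -0.33 (adjusted p = 0.276, 0.0593 and 1). Nkd2 in Baf250a KD with Zn passed the test without the shallow library (-0.38) and with the GC correction (-0.48, adjusted p = 0.032). In Baf180 KD, Dkk3 with Cu passed in 1 of 6 alternative fits (lowest adjusted p = 0.0224) and Nkd2 with Zn in 2 of 6 (0.0223). With Zn, Dkk3 was at -0.10, 0.24 and 0.12, and the Baf250a KD value rests on libraries at 19.8 and 5.83 CPM. In scr, Dkk3 and Nkd2 had too few counts to be tested for a metal response.

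The remaining calls were smaller. In Baf180 KD with Cu, Fzd3 (-0.55, adjusted p = 0.0359), Fzd4 (-0.46, adjusted p = 0.0431) and Sfrp4 (-1.03, adjusted p = 0.0496) fell. With the GC correction they were -0.07, -0.38 and -0.83 and none was called. Fzd4 and Sfrp4 also lost the call without any 1 library, and Fzd3 without replicate 1 of Cu (-0.42) or replicate 2 of NT (-0.38). In scr with Zn, Fzd3 rose by 0.93 (14.5 ± 3.26 to 25.8 ± 0.793 CPM, adjusted p = 0.0275) and Fzd8 fell by 0.80 (4.47 ± 0.109 to 2.43 ± 0.130 CPM, adjusted p = 0.0489). Corrected, they were 0.13 and -0.68 and not called, and left-out libraries gave 0.68 to 1.18 and -0.84 to -0.75. The Fzd3 call was lost without replicate 2 of NT or either Zn library, and the Fzd8 call without any 1 library.

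In Baf250a KD with Zn, Fzd5 (-0.37, adjusted p = 0.0238) and Sfrp2 (-0.34, adjusted p = 0.0418) fell, and both were also called with the correction (-0.48 and -0.46, adjusted p = 0.0187 and 0.0214). Without the shallow library 5 members were called, 1 higher and 4 lower. Without replicate 1 of that group, which leaves the shallow library as its only one, Fzd5 was at -0.60 and Sfrp2 at -0.05, neither called. Without replicate 1 or 2 of untreated Baf250a KD they were not called either, at -0.38 in both for Fzd5 and at -0.37 and -0.27 for Sfrp2, so 0 members were called there.

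**Figure D5:**
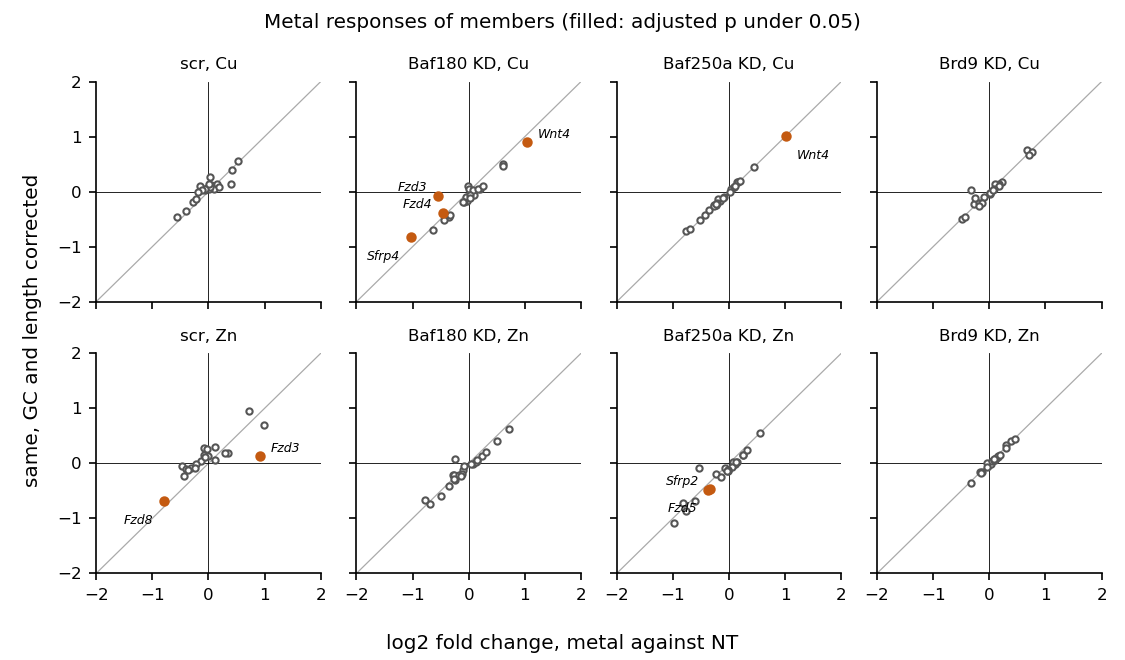
Log2 fold change of each tested member with Cu (upper row) or Zn (lower row) against NT in each line (x axis), and the same value after correction for GC content and length (y axis), with the diagonal in grey. Filled points are DEGs of the uncorrected fit: Wnt4 lies on or near the diagonal in both KDs where it is filled, whereas Fzd3 moves close to 0 on the y axis in scr with Zn and in Baf180 KD with Cu.

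Whether a KD changed the response to a metal was tested on all 24 libraries, as the response in the KD minus that in scr. For Cu, 3 of 26 members were called in Baf180 KD (12.8% of 16524 genes), 1 in Baf250a KD (0.0121%, 2 genes) and 0 in Brd9 KD (0.0363%, 6 genes). Wnt4 was one of the 2 genes called in Baf250a KD. In Brd9 KD with Cu, 2 members (Fzd3 and Wnt4) had an unadjusted p under 0.05, and DESeq2 called 1 member. For Zn, 8, 5 and 4 members were called (28.7%, 30.5% and 11.1% of all genes). All these differences share the untreated and metal-treated scr libraries. Left-out libraries moved the counts. For Cu in Baf180 KD it was 0 without its replicate 1 with Cu or replicate 2 of untreated scr, and 1 without its untreated replicate 2 or replicate 2 of scr with Cu. For Zn in Baf180 KD it was 2 without its untreated replicate 2, its replicate 1 with Zn, or replicate 2 of scr untreated or with Zn, and 5 without its untreated replicate 1 or replicate 1 of scr with Zn. For Zn in Baf250a KD it was 0 without its replicate 1 with Zn, 6 without the shallow library, 3 without its untreated replicate 2 or replicate 2 of untreated scr, and 2 without replicate 2 of scr with Zn. For Cu in Brd9 KD it was 1 without replicate 1 of scr, untreated or with Cu. For Zn in Brd9 KD it was 0 without its untreated replicate 2, its replicate 1 with Zn, replicate 2 of untreated scr or either scr library with Zn.

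The Cu response of Wnt4 was larger than that of scr by 1.38 ± 0.21 in Baf180 KD (adjusted p = 5.7e-03) and 1.32 ± 0.20 in Baf250a KD (adjusted p = 0.0117). With the GC correction these were 1.07 and 1.19 (adjusted p = 0.0230 and 0.0166). In Brd9 KD it was 1.13 ± 0.22 (adjusted p = 0.0892). The Baf180 KD call was lost without replicate 1 of its Cu libraries (1.25) or replicate 2 of untreated scr (1.14). The Baf250a KD call was lost in 6 of 8 leave-one-out fits, at 1.08 to 1.39: without either of its Cu or untreated libraries, replicate 2 of scr with Cu or replicate 2 of untreated scr.

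For Zn, the response of Fzd3 minus that in scr was -1.06, -1.37 and -0.88 in Baf180, Baf250a and Brd9 KD, with a rise in scr and responses of -0.24, -0.53 and -0.05 in the KDs, none of them called. For Fzd8, which fell in scr, the difference was 0.65, 0.86 and 0.86, with responses of -0.26, -0.02 and -0.05 in the KDs, again not called. Corrected for GC content the differences were -0.08, -0.22 and -0.15 and 0.38, 0.54 and 0.60, none of them called. The difference for Sfrp4 was called in Baf180 KD and Baf250a KD (-1.67 ± 0.35 and -1.74 ± 0.37, adjusted p = 2.3e-03 and 1.6e-03) and stayed called after correction (-1.37 and -1.44, adjusted p = 0.0218 and 8.8e-03). In scr it was at 1.41 ± 0.162 CPM untreated and at 2.62 ± 0.255 with Zn (log2 fold change 0.99, adjusted p = 0.0607). In the KDs its level was lower with Zn, at 2.03 ± 0.212 and 1.20 ± 0.0486 CPM in Baf180 KD (-0.78, adjusted p = 0.351) and at 4.62 ± 0.204 and 2.30 ± 0.496 CPM in Baf250a KD (-0.83, adjusted p = 0.0690), so the responses had opposite signs and none passed the test alone. Without replicate 1 of Baf250a KD with Zn the Baf250a KD value was -2.17 and not called. Wnt4 in Brd9 KD differed by 0.86 (adjusted p = 0.0316), by 0.50 corrected and not called, and was lost in 6 of 8 fits that left out a library (0.62 to 0.88).

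Other genes of the pathway, were read in untreated cells, where higher DEGs made up 21.7%, 28.9% and 15.1% and lower DEGs 19.3%, 28.9% and 14.1% of all genes tested in Baf180, Baf250a and Brd9 KD. Rspo proteins amplify Wnt signals: they bind Lgr receptors and keep the ubiquitin ligases Rnf43 and Znrf3 from removing Frizzled. Of the 9 genes of this R-spondin group, the ligases included, 6, 7 and 5 had enough counts to be tested. Of these, 6, 7 and 1 rose. Rspo2, Rnf43 and Lgr5 were near 0 in scr and could pass the filter through the KD libraries where they were high, so these counts do not describe all 9 genes. Rspo2 was at 0.0222 to 0.139 CPM in scr, 1.37 to 2.32 in Baf180 KD, 5.81 to 11.7 in Baf250a KD and 0.499 to 1.48 in Brd9 KD, and rose by 3.93, 6.15 and 3.25 (adjusted p = 1.3e-04, 1.2e-08 and 4.0e-03). Rnf43 was at 5.29 to 7.86 CPM in Baf250a KD and at most 0.114 in scr. Lgr5 was at 1.94 to 5.41 CPM in Baf250a KD and at most 0.203 in every other line.

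Of 8 co-receptors and related receptors, 7 were tested, and 4 rose and 1 fell in Baf180 KD, 6 rose and 1 fell in Baf250a KD, and 1 rose and 2 fell in Brd9 KD. For these and the next lists, 21.7%, 28.9% and 15.1% of all genes tested were higher DEGs and 19.3%, 28.9% and 14.1% lower ones. Ror2, a receptor of Wnt5a, rose by 2.20, 3.12 and 1.74, and its paralog Ror1 fell by 1.82, 1.19 and 1.46 on the log2 scale. Lrp5 and Lrp6 rose in Baf180 KD (0.38 and 0.47) and Baf250a KD (0.70 and 0.57). Of 14 cytoplasmic and nuclear genes, 6, 7 and 4 rose and 1, 2 and 1 fell. Among them the transcription factors Tcf7l1 (1.57, 1.43 and 0.97) and Tcf7l2 (1.82, 1.75 and 1.10) rose in all 3 KDs and Dvl1 fell (-1.07, -0.49 and -0.40). Of 7 planar polarity genes 6 were tested, of which 1 rose in each KD and 2, 2 and 1 fell.

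Of 14 known β-catenin targets, 11, 12 and 10 were tested, 7, 9 and 4 rose and 1, 3 and 0 fell in Baf180, Baf250a and Brd9 KD, with medians of 0.36, 0.91 and 0.38. Over all genes tested, 21.7%, 28.9% and 15.1% were higher DEGs and 19.3%, 28.9% and 14.1% lower ones. Notum, Rnf43 and Lgr5 were near 0 in scr and could pass the filter through the KD libraries where they were high. The counts and medians of this list therefore describe the genes tested and not all 14. This list shares Axin2 and Nkd1 with the members, and Lgr5, Rnf43, Znrf3, Tcf7, Lef1, Notum and Apcdd1 with the other lists. Ccnd1, which encodes cyclin D1, rose by 1.12, 1.24 and 1.36. Notum, a secreted enzyme that inactivates Wnts, rose by 3.55, 4.62 and 2.45 (adjusted p = 6.1e-05, 1.4e-07 and 6.2e-03). Cd44 fell in Baf180 KD and Baf250a KD (-1.25 and -1.24), and Myc fell in Baf250a KD (-0.55).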

How the data were processed

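RNA-seq was made from 24 libraries of C2C12 myoblasts after RNase H removal of ribosomal RNA, with strand-specific libraries. The authors aligned reads to mm10 with STAR, kept unique alignments and deposited whole-number counts of read pairs per gene symbol from featureCounts. The authors' own DESeq2 tables, with log2 fold changes, standard errors and p-values, were not used. Samples were grouped by title, since a treatment tag contradicts the titles; metal doses come from the study's methods.

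Counts were tested in R 4.3.3 with edgeR 4.0.16 (TMM, filterByExpr defaults, glmQLFit and glmQLFTest) over all genes, on the 4 libraries of a KD and scr comparison, the 6 of a line, the 12 of 2 KDs or all 24. DESeq2 1.42.0 was an alternative, with RLE factors, all genes with at least 1 count, a replicate block, all 24 libraries, left-out libraries and a GC and length offset (spline with 5 degrees of freedom, GENCODE M21, 53292 of 55291 symbols annotated). The fits were tested on simulated data. Depth ran from 495778 to 75179394 counts and sets the precision; intervals and floors (3 counts, 95% exact) cover counting error only. The replicates are described as independent, and p-values rest on the spread between 2 of them, estimated with help from all genes tested. Whether the replicates of a line came from separate transductions is not said. Differences between transduced populations may therefore not be covered by the p-values of a KD against scr.

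The rule for members uses symbols only, but this gene family, like the gene lists, was chosen with earlier results of these data known. Named genes are Wnt4, Dkk3 and Nkd2 in every comparison, members called, and the most changed genes of the pathway lists. Promoters come from RefSeq (GRCm38.p6); 28 of 41 members had an entry. Only uniquely aligned reads were counted, and paralogs may lose reads.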

Additional observations from a re-analysis of the deposited data

Results flagged for a closer look

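These are tested differences between the metal response of a KD and that of scr, fitted on all 24 libraries, and all share the scr libraries. No explanation was tested. With Cu in Baf180 KD the differences (log2 scale) were 1.38 for Wnt4, -0.90 for Fzd3 and -1.16 for Sfrp4, and in Baf250a KD 1.32 for Wnt4. With Zn in Baf180 KD they were 0.56 for Axin1, 0.40 for Fzd1, -1.06 for Fzd3, 0.65 for Fzd8, -1.67 for Sfrp4, 0.73 for Wnt10a, 0.64 for Wnt7b and 0.78 for Wnt9a. With Zn in Baf250a KD they were 0.61 for Axin1, 0.39 for Fzd1, -1.37 for Fzd3, 0.86 for Fzd8 and -1.74 for Sfrp4. With Zn in Brd9 KD they were 0.52 for Axin1, -0.88 for Fzd3, 0.86 for Fzd8 and 0.86 for Wnt4. After correction for GC content and length, Wnt4 with Cu (1.07 and 1.19) and Sfrp4 with Zn (-1.37 and -1.44) were still called, and the other 17 were not. Fzd1 with Zn then turned sign in Baf180 KD (-0.0083) and Baf250a KD (-0.0504). All groups here have 2 libraries, so no group was large enough for a test of single outlying libraries.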

How the results depend on the processing

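Among 243 member values past the threshold, the GC and length correction kept 207, lost 33 and turned 3. Left-out libraries kept the call in 1369 fits, lost it in 174 and turned the sign in 1. DESeq2 kept 63 and lost 15, the replicate block kept 230 and lost 13, all genes of at least 1 count lost 11, all 24 libraries 3 and RLE factors 2. Counts of members called moved as follows. For scr with Zn (2) it was 0 with the GC correction and 7 with all 24 libraries. For Baf180 KD with Cu (4) it was 1 with the GC correction and 2 with DESeq2. For Baf180 KD with Zn (0) it was 2 with all genes of at least 1 count. For Baf250a KD with Zn (2) it was 0 with DESeq2 and 0 with all 24 libraries. For Brd9 KD with Cu (0) it was 1 with all genes of at least 1 count and 1 with all 24 libraries. Differences from scr for Baf180 KD with Cu (3) numbered 5 with RLE factors and 1 with the GC correction. With Zn (8) they numbered 5 with all genes of at least 1 count, 1 with the GC correction and 4 with DESeq2. They numbered 3 with the GC correction for Baf250a KD with Zn (5), 1 with all genes of at least 1 count and 1 with DESeq2 for Brd9 KD with Cu (0), and 2 with all genes of at least 1 count and 0 with the GC correction for Brd9 KD with Zn (4). The cause was not tested.

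The replicate number as a block gave 0 members for scr with Zn, 1 for Baf180 KD with Zn, 1 for Baf250a KD with Zn and 5 for the difference of Baf180 KD with Cu; elsewhere the block kept counts within 1.5 times. No source says that a number marks a shared batch, and with 2 replicates the numbers were not taken to pair the samples. Deviations of same-numbered libraries of a line correlated at -0.18 to 0.28 over 12 pairs of conditions, above 0.1 in 5 (among them all 3 of Baf180 KD) and below -0.1 in 1. Crossed pairing, chosen after seeing the data, gave 20 members in untreated Baf180 KD and 12 in untreated Brd9 KD.

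Values changed sign with the GC correction for Wnt4 in Baf180 KD within Cu (-0.0728), Axin1 in Baf180 KD within Zn (-0.0333) and the differences from scr of Dkk3 (-0.1253) for Baf180 KD with Cu, Wnt4 (-0.0086) and Fzd1 (-0.0083) for Baf180 KD with Zn, Wnt4 (-0.0296) and Fzd1 (-0.0504) for Baf250a KD with Zn and Nkd2 (-0.1106) for Brd9 KD with Cu. With left-out libraries, Axin1 in Baf250a KD within Zn ran from -0.2064 to 0.4811, and in that KD the Zn responses of Wnt4 from -0.1932 to 0.2615 and of Dkk3 from -1.4133 to 0.3154, each turning sign without replicate 1 with Zn. The Cu response of Nkd2 in Brd9 KD ran from -0.0827 to 0.2605, the Zn response of Dkk3 there from -0.0483 to 0.2965, and the differences from scr with Cu from -0.0952 to 0.345 for Dkk3 in Baf180 KD and from -0.0834 to 0.268 for Nkd2 in Brd9 KD.

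Leaving out 1 library at a time, counts ran from 13 to 20, 20 to 24 and 5 to 10 for untreated Baf180, Baf250a and Brd9 KD, 11 to 17, 20 to 22 and 4 to 10 within Cu and 19 to 21, 16 to 22 and 10 to 15 within Zn. They ran from 0 to 2 for scr with Zn, 0 to 3 for Baf180 KD with Cu and 0 to 5 for Baf250a KD with Zn. Differences from scr ran from 0 to 4, 0 to 1 and 0 to 1 with Cu and 2 to 8, 0 to 7 and 0 to 4 with Zn. Where this left a group with 1 library, that library was taken to vary like the others. Members under 1 CPM are limited by depth, above all in the library of 495778 counts.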
